A study of Mus musculus with 24 samples.

Results

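The comparison described here is that of 24 h of bortezomib against no drug in the 2 mouse myeloma lines labelled sensitive, 595sp and 638bm. It was taken by sample title: each line has 1 untreated array (0 h) and 2 arrays at 24 h, titled 24h and 24h_2, which were averaged within the line, so that 6 of the 24 arrays of the series carry the comparison and n = 2 lines. Both lines are given as cells derived from multiple myeloma in Bcl-XL/Myc double transgenic mice on a mixed strain background (FVBN crossed with BL/6), and the derivatives labelled resistant, 595sp VR and 638bm VR, carry the same transgenes. Treated cultures received 33 nM bortezomib. The only untreated arrays are those of 0 h, so effects of the drug and of 24 h in culture cannot be told apart. The other arrays cover 2 h, 8 h and 16 h in the sensitive lines and all times in the resistant ones. Whether the arrays of a line come from separate cultures is not stated in the labels, and each line stands for itself alone. The p-values therefore measure the spread between these samples and lines only. That spread was pooled over all times and over the sensitive and resistant lines, so it is not that of the 2 sensitive lines alone.

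Bortezomib blocks the chymotrypsin-like site of the proteasome, the protease that degrades ubiquitin-tagged proteins. Plasma cells and myeloma cells make and fold large amounts of secreted protein, so misfolded protein and its disposal weigh heavily on them. Cells with a blocked proteasome are known to use several transcriptional responses: heat shock factor raises chaperones, NRF1 raises proteasome subunits, NRF2 raises antioxidant genes, and ATF4 acts downstream of phosphorylated eIF2alpha in the integrated stress response.

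Signals above the array background were seen at 16253 to 17362 of 45281 probes on the 6 arrays, and 10969 genes were tested. The 2 arrays at 24 h differed by an SD of 0.26 (log2) across genes in 595sp and 0.18 in 638bm. Of 11 plasma cell markers, 7 lay above background on both untreated arrays, among them Sdc1, Irf4 and Xbp1, while Prdm1, Jchain and Tnfrsf17 did so on none of the 6. The mean level of the plasma cell markers was 8.57 in 595sp and 8.19 in 638bm untreated and 7.98 at 24 h. Of 7 mature B cell markers 4 were above background on both untreated arrays, and the mean level of these markers was 7.09 and 7.15 untreated and 6.598 at 24 h. Of 8 T cell markers 3 were above background on both untreated arrays (Cd8b1, Cd2 and Cd28), with mean levels of 7.28 in 595sp and 6.56 in 638bm untreated and 6.40 at 24 h. Cd3e, Cd4 and Cd8a were above background on none of the 6 arrays, and neither were the 6 stromal markers. The targeted subunit Psmb5 stood at 7.89 untreated and 8.29 and 8.81 at 24 h in 595sp and at 8.01, 8.55 and 8.35 in 638bm, a difference of 0.55 ± 0.23 (SE) with a limma adjusted p of 0.0928. In bulk RNA, fewer cells of a type and less RNA per cell cannot be told apart.

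At 24 h, 1460 genes were higher (13.3% of those tested) and 1106 were lower (10.1%), at a limma adjusted p under 0.05. All levels below are log2 intensities after background correction and quantile normalization. Changes are the mean over both lines of 24 h minus 0 h, given as log2 ± SE (n = 2 lines). The SE comes from the joint fit of all lines and times and can be smaller than the spread of the 2 changes. For Trib3, described below, the changes were 1.47 in 595sp and 4.79 in 638bm, and the SE was 0.74. The median change over all genes was 0.06 and the quartiles lay at -0.23 and 0.35. A change of at least 2-fold was called for 320 genes upward and for 493 downward. The mean hides differences between the lines: 157 genes were at least 2-fold higher and 246 at least 2-fold lower in both lines, 9 were 2-fold changed in opposite directions, and across genes the changes of the lines correlated with r = 0.54, a description over genes that share arrays. The fit holds the line as a term, and without it 63 genes were higher and 87 lower. With the sensitive lines alone in the fit the counts were 825 and 698. For the gene lists below, counts of 5 or more that moved by over 1.5 times when a line was left out are given with their value without it. Shares of a list near the 13.3% higher and 10.1% lower of all genes are no result about that list.

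**Figure D1:**
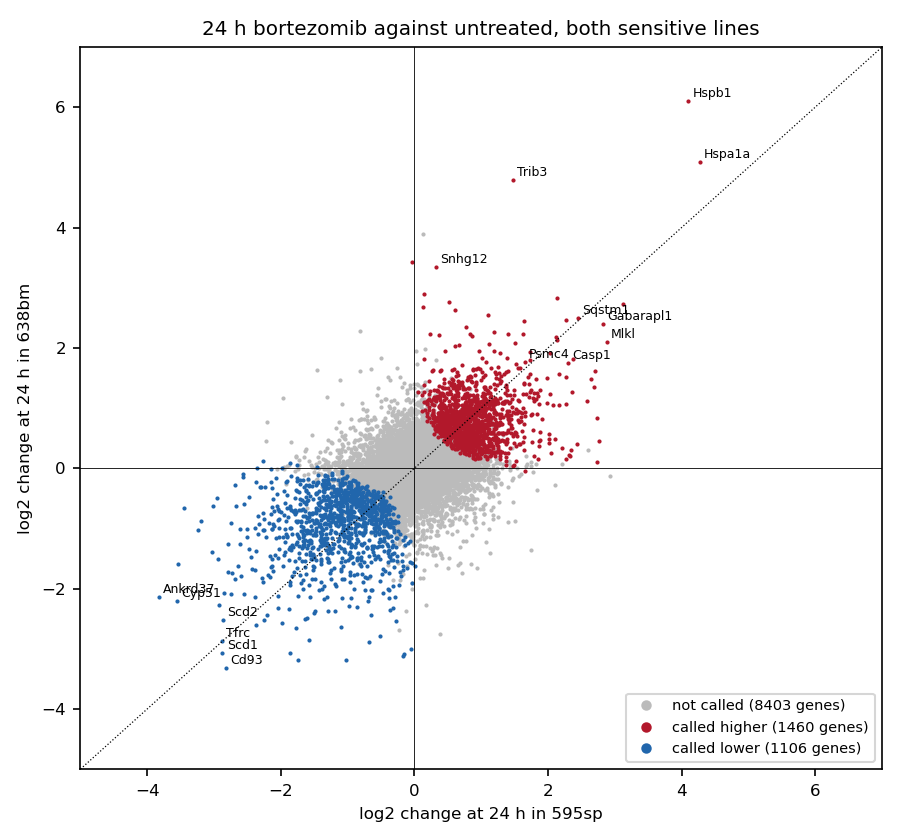
Change at 24 h (log2) in 638bm against that in 595sp for each of the 10969 genes tested, coloured by call. The called genes lie mostly in the quadrants where both lines moved the same way, and 157 genes higher and 246 lower passed 2-fold in both lines.

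Outside the cytosolic chaperones, the genes that rose most in both lines were the selective autophagy receptor Sqstm1, the autophagosome protein Gabarapl1, the arsenite-inducible proteasome-binding protein Zfand2a and the stress transcription factor Ddit3. Sqstm1 read 11.04 untreated and 13.54 and 13.42 at 24 h in 595sp, and 9.13 untreated and 11.78 and 11.46 in 638bm. Gabarapl1 read 8.25, 11.22 and 10.92 in 595sp and 7.24, 9.67 and 9.59 in 638bm. Every 24 h array of these genes lay above both untreated arrays. Here and below, named genes were picked for large changes in both lines, so such separation of arrays largely follows from the choice. It is a description and no added support, and its share among all genes tested was not counted. The changes were 2.47 ± 0.25 for Sqstm1 (adjusted p = 2.02e-05) and 2.61 ± 0.19 for Gabarapl1 (adjusted p = 1.67e-06). Zfand2a rose by 2.37 ± 0.22 and Ddit3 by 2.14 ± 0.26. They were followed by genes of other functions: Trafd1, a TRAF-type zinc finger protein of innate immune signalling (2.16 ± 0.17), Gch1, the first enzyme of tetrahydrobiopterin synthesis (1.98 ± 0.21), and Casp1, the inflammatory caspase (2.02 ± 0.18). Ypel5 was higher by 1.76 ± 0.22 on its brightest probe, but another of its 3 probes gave -0.73. Among the genes that fell most in the line that changed less were the surface glycoprotein Cd93, of the C-type lectin family (-3.08 ± 0.19), the stearoyl-CoA desaturases Scd1 (-2.97 ± 0.28) and Scd2 (-2.69 ± 0.27), and the transferrin receptor Tfrc (-2.88 ± 0.32). Napsa, an aspartic protease, fell by 2.39 ± 0.22, Kcnn4, a calcium-activated potassium channel, by 2.32 ± 0.26, and the histone variant gene H2ax by 2.27 ± 0.26.

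**Figure D2:**
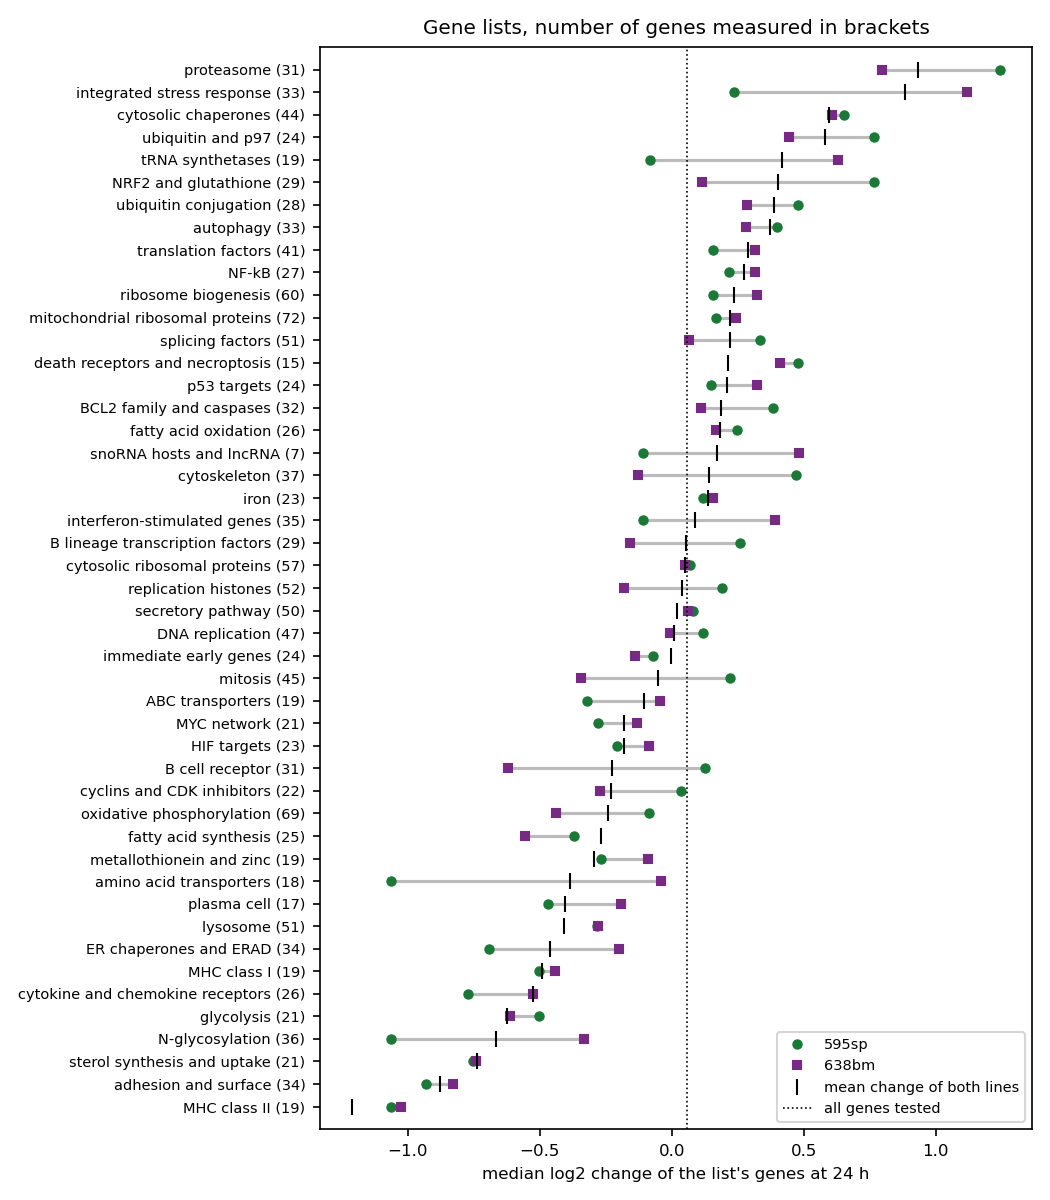
Median 24 h change (log2) of the tested members of each gene list, in both lines and as their mean, with all genes tested as the reference. By the mean of both lines the proteasome, at 0.93, lies farthest to the right, and MHC class II, at -1.21, farthest to the left.

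Of the 47 gene lists, the proteasome had the highest share of rises: 26 of 31 tested genes rose, none fell (0 also at an unadjusted p under 0.05), and its median change was 0.93 against 0.06 for all genes. Without 595sp 17 of the 31 rose and without 638bm 25. The subunits of the regulatory particle and its assembly chaperones had a median of 1.15, with 17 of 20 higher, and the core particle a median of 0.81, with 9 of 11 higher, a split chosen after the values were seen. Of the core, 2 of 11 were higher without 595sp. Psmc4, an ATPase of the regulatory particle, read 10.71, 12.38 and 12.34 in 595sp and 9.94, 11.61 and 11.80 in 638bm. The 24 h arrays did not overlap the untreated ones, and the change was 1.71 ± 0.17.

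Genes that hand ubiquitinated protein to the proteasome were higher as well. Of 24 genes for ubiquitin and for the p97 segregase, which extracts tagged proteins from membranes and complexes, 15 rose and 1 fell, with a median of 0.58. Without 595sp 9 rose, and without 638bm 13. Ufd1, a cofactor that ties p97 to ubiquitin chains, read 6.59, 8.45 and 8.19 in 595sp and 7.0, 8.95 and 8.92 in 638bm, without overlap between untreated and treated arrays (1.83 ± 0.23, adjusted p = 8.13e-05). Its partner Nploc4, picked after its value was seen because of its promoter, rose by 1.17 ± 0.21, the p47 cofactor Nsfl1c by 1.48 ± 0.18, and Vcp, p97 itself, also picked after the values were seen, by 1.19 ± 0.21. The member that fell was Faf2, a membrane adaptor of p97 (-0.71 ± 0.19), and that call was lost without 595sp (-0.60). Of 28 ubiquitin-conjugating enzymes 10 rose and none fell at the threshold (1 fell at an unadjusted p under 0.05), with 4 higher without 595sp and 6 without 638bm. Ube2g2, an E2 of ER-associated degradation, rose by 0.87 ± 0.21. In the autophagy list 10 of 33 rose and 2 fell. Beside Sqstm1 and Gabarapl1 these included the receptor Tax1bp1 (1.54 ± 0.19) and Atg101, a subunit of the initiating kinase complex (1.10 ± 0.16), while Retreg1, a receptor for the autophagy of ER membrane, fell by 1.17 ± 0.23.

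Promoters of all gene lists were searched for several motifs. The heat shock element is given here because heat shock factor binds inverted GAA repeats. A sterol regulatory element, an E-box, a CCAAT box and an XBP1 element were searched too, and of these only the sterol element is described below. Sequences are RefSeq promoters on GRCm38.p6, each of 300 bases, 250 before and 50 after the start of the gene, and 8908 of the genes tested have one. The heat shock element was searched as GAANNTTC, which reads the same on both strands, and the capitals below mark it. It occurs in 5.95% of promoters of genes tested, in 7.86% of all 32851 promoters and in 16 of the 49 promoters of cytosolic chaperones. In the ubiquitin and p97 list it occurs in 14.3%, where it stands before Nploc4, Uchl1, Vcp and Zfand6. Apart from the chaperones, higher shares of promoters held the motif for MHC class II (23.08%), replication histones (16.67%) and the secretory pathway (15.0%). The chaperone Hspb1 (chr5:135887669-135887968, plus strand) holds it at -117 and -97, Hsph1 (chr5:149636266-149636565, minus strand) at 20 and Nploc4 (chr11:120437651-120437950, minus strand) at -176, counted from the gene start. They are shown to set a pair of chaperone promoters beside that of a p97 cofactor.
Hspb1: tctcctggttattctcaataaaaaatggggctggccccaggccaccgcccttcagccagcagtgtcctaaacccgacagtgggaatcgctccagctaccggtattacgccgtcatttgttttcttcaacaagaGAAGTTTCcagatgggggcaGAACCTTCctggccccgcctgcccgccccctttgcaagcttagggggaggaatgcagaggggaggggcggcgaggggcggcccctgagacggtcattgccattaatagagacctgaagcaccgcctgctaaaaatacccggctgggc
Hsph1: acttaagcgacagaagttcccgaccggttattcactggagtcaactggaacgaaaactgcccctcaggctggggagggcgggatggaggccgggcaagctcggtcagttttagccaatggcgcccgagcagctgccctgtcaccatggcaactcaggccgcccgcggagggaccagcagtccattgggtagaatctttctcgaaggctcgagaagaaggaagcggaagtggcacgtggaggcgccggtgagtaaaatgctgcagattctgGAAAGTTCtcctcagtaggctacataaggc
Nploc4: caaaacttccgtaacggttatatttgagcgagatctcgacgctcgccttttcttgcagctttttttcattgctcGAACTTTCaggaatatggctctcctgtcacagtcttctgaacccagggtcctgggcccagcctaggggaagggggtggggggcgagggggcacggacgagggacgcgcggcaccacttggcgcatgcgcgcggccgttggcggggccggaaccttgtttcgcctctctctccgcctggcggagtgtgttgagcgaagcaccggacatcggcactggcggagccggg
Hspb1 read 6.80, 10.58 and 11.23 in 595sp and 5.41, 11.60 and 11.40 in 638bm, where the untreated value was not above background. Its change was 5.10 ± 0.48 and that of Hsph1, which is a nucleotide exchange factor of HSP70, 2.49 ± 0.36. A match is a description of these letters and not a binding site. In the promoters of the genes called at least 2-fold higher the motif occurs in 8.26%, and in those at least 2-fold lower in 5.49%.

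Lysosomal genes went in different directions by compartment. Among 51 tested genes 5 rose and 19 fell, with a median of -0.41. Without 595sp 2 rose and 16 fell, and without 638bm 6 rose and 15 fell. The risers were mostly subunits of the cytosolic V1 sector of the proton pump that acidifies the lysosome: 4 of 7 rose and none fell (0 also at an unadjusted p under 0.05), median 0.62, with 2 higher without 595sp. None of the 3 tested genes of the membrane-embedded V0 sector was called, also at an unadjusted p under 0.05. Of 30 lumenal enzymes and their activators 16 fell and none rose (0 also at an unadjusted p under 0.05), median -0.71, and this grouping was chosen after the values were seen. Gusb, beta-glucuronidase, read 12.37, 9.91 and 9.73 in 595sp and 12.02, 9.95 and 9.91 in 638bm. Treated and untreated arrays did not overlap (-2.32 ± 0.20, with its 4 probes between -2.32 and -0.92). The V1 subunit Atp6v1d moved the other way, by 1.30 in 595sp and 0.74 in 638bm (1.02 ± 0.17). Man2b1, lysosomal alpha-mannosidase, fell by 1.51 ± 0.18 and Ctsc, which activates serine proteases, by 1.30 ± 0.22.

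**Figure D3:**
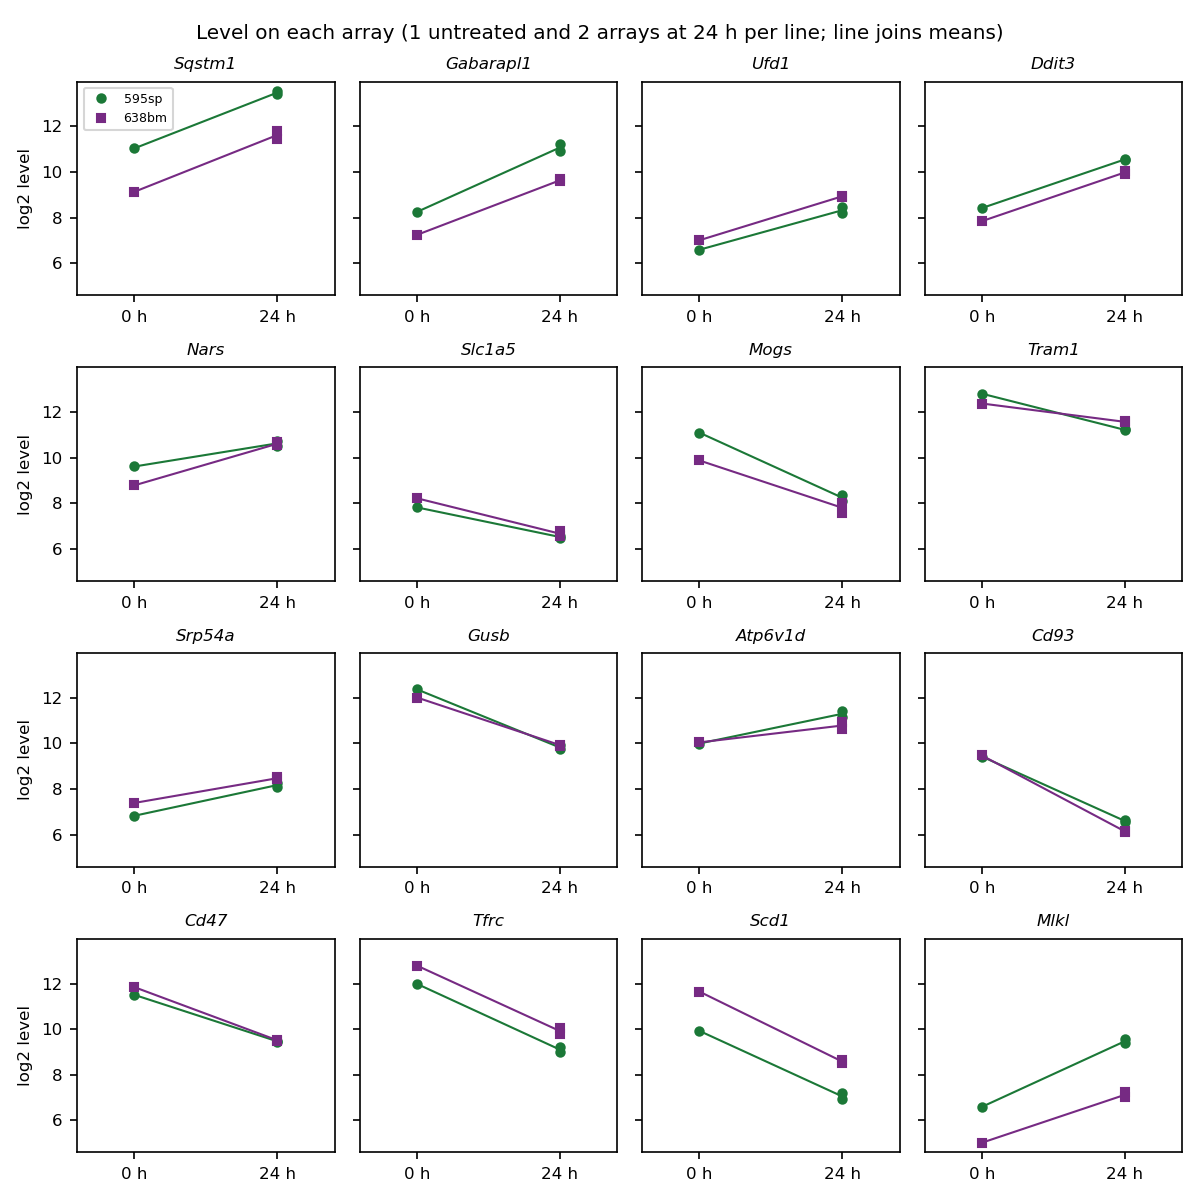
Level (log2 intensity) of 16 genes on the untreated array and both 24 h arrays of 595sp and of 638bm. Sqstm1, Gabarapl1, Ufd1, Ddit3, Nars, Srp54a, Atp6v1d and Mlkl are higher and Slc1a5, Mogs, Tram1, Gusb, Cd93, Cd47, Tfrc and Scd1 lower on every 24 h array than on the untreated array of the same line.

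The integrated stress response list, targets and regulators of ATF4, was less even between the lines. Of 33 genes 14 rose and 1 fell, with a median of 0.88, but the median was 0.23 in 595sp and 1.12 in 638bm. Without 638bm 9 rose, and without 595sp 17. Ddit3, which encodes the factor CHOP, read 8.42, 10.57 and 10.53 in 595sp and 7.84, 9.93 and 10.03 in 638bm, a change of 2.13 and 2.14. The transcription factor Atf5 rose by 1.65 ± 0.24. Trib3, a pseudokinase induced by ATF4 and CHOP, differed between the lines: it read 9.83, 11.34 and 11.27 in 595sp and 6.30, 11.22 and 10.96 in 638bm, a change of 3.13 ± 0.74. The treated levels met while the untreated ones stood apart, and without 638bm the change of 1.47 was not called. The fall in the list was Vegfa, the angiogenic growth factor (-1.06 ± 0.35), a call that was lost without 595sp (-0.40) and under several other settings, such as no background correction.

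Charging of transfer RNA and uptake of amino acids are both known to be raised by ATF4. Of 19 tRNA synthetases 7 rose and 1 fell, with a median of 0.42, -0.08 in 595sp and 0.63 in 638bm. Without 595sp 9 rose and none fell, and without 638bm 3 rose and 3 fell. Nars, the asparaginyl-tRNA synthetase, read 9.61, 10.52 and 10.74 in 595sp and 8.79, 10.55 and 10.67 in 638bm. All treated arrays were above the untreated ones (1.42 ± 0.27), and Wars, for tryptophan, rose by 1.31 ± 0.24. Of 18 amino acid transporters none rose (0 also at an unadjusted p under 0.05) and 7 fell, with a median of -0.39. Without 595sp 2 rose and 2 fell, and without 638bm 1 rose and 9 fell, and the medians were -1.06 in 595sp and -0.04 in 638bm. Slc1a5, the glutamine transporter, fell in both lines, from 7.82 to 6.50 and 6.55 and from 8.22 to 6.79 and 6.55, by 1.43 ± 0.18. Of 41 translation factors 10 rose and 1 fell. They included subunits of eIF2B, the exchange factor that phosphorylated eIF2alpha inhibits: 3 of 5 rose, with Eif2b2 higher by 1.35 ± 0.17 and Eif2b4 by 1.15 ± 0.19. Eif3c, a subunit of the initiation factor eIF3, rose by 1.11 ± 0.22, as 1 of 4 among 8 eIF3 genes, of which 1 was called without 638bm.

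ATF4 with a C/EBP partner binds a composite element, searched as TGATGNAA on both strands. It occurs in 2.35% of the promoters of genes tested and in 3.97% of all promoters, in 23.5% of those of the integrated stress response list, and in 41.7% of those of the tRNA synthetases, which are 5 of 12 (Aars, Gars, Iars, Tars and Yars). Of these 5 genes 3 rose, beside 7 of all 19 synthetases. Of the 8 stress response genes with the element 3 rose, beside 14 of all 33. Among the other lists its share was highest for amino acid transporters (17.39%), of which none rose, and interferon-stimulated genes (14.29%). Trib3 (chr2:152344011-152344310, minus strand) and Tars, the threonyl-tRNA synthetase (chr15:11399609-11399908, minus strand), are shown as 1 promoter of each list. The capitals mark the element, read here on the reverse strand, at 14 and -15 from the gene start.
Trib3: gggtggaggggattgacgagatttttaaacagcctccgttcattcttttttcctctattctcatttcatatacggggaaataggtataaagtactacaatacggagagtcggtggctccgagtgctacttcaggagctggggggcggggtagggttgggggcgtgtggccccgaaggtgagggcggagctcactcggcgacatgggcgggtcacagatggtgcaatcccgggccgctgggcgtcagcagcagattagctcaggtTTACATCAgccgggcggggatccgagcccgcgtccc
Tars: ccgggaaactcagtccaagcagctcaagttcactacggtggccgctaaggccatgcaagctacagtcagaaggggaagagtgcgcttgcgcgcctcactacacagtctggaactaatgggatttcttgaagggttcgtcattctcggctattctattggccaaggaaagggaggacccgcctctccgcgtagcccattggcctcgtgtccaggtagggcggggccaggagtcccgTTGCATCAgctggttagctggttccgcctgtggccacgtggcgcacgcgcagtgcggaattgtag
Tars read 5.86, 6.38 and 7.04 in 595sp and 6.80, 8.35 and 8.16 in 638bm, a change of 1.15 ± 0.31 that was not called without 638bm (0.85). Its other probe gave 0.30.

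Genes of the secretory route went in both directions by step. Of 50 genes 12 rose and 14 fell, with a median of 0.02, and without 595sp 8 rose and 5 fell. The signal recognition particle, which brings nascent chains to the ER, had 5 of 6 members higher and none lower (0 also at an unadjusted p under 0.05), median 0.62. Of these 1 was called without 595sp. Srp54a, its GTPase, read 6.83, 8.10 and 8.25 in 595sp and 7.39, 8.44 and 8.51 in 638bm and rose by 1.22 ± 0.26. The membrane machinery that receives and threads these chains, made of the particle's receptor, the translocon, the TRAP complex and signal peptidase, had 9 of 17 members lower and none higher (0 also at an unadjusted p under 0.05), median -0.57. That count was 2 without 595sp and 10 without 638bm. Ssr1, a TRAP subunit, fell by 1.14 ± 0.20, and Tram1, which accompanies the translocon, by 1.20 ± 0.20, a call lost without 595sp (-0.80). The other probe of Ssr1 gave -0.50. Vesicle coats and fusion proteins included risers, Copa of the COPI coat (1.04 ± 0.16), Sec13 of COPII (1.05 ± 0.17) and the Golgi SNARE Gosr2 (1.08 ± 0.18). Of 9 cargo receptors 5 fell and 1 rose, median -0.69, with 3 lower without either line. Kdelr2, which returns ER residents from the Golgi, read 10.63, 8.81 and 8.40 in 595sp and 10.54, 9.58 and 9.50 in 638bm, a fall of 1.51 ± 0.25 with no overlap. These groupings by step were chosen after the values were seen.

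**Figure D4:**
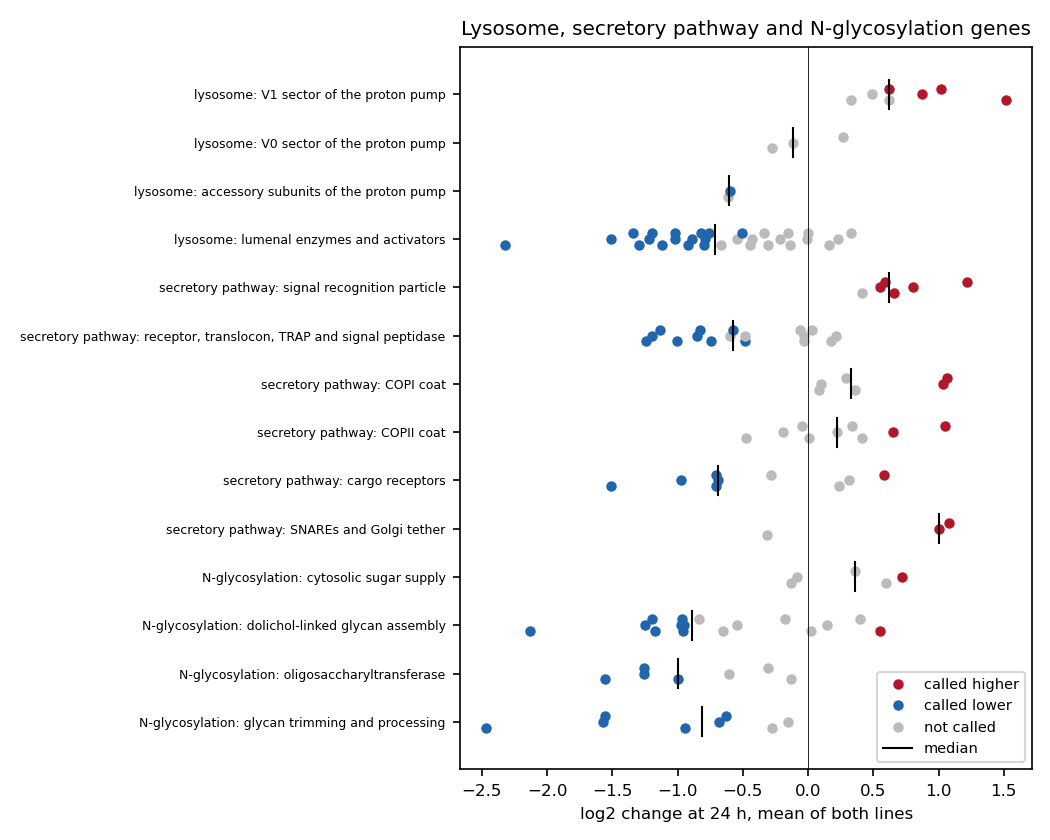
Each point is the 24 h change (log2, mean of both lines) of a tested gene of the lysosome, the secretory pathway or N-glycosylation, by subgroup, coloured by call, and a bar marks the median. V1 pump subunits and the signal recognition particle lie mostly above 0, lumenal enzymes, translocation machinery and glycan enzymes mostly below.

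N-glycosylation, the addition and trimming of sugar chains on proteins in the ER and Golgi, was mostly lower. Of 36 genes 18 fell and 2 rose, with a median of -0.67, and 12 fell without 595sp and 23 without 638bm. The falls were spread over the pathway: 8 of 16 genes for assembly of the dolichol-linked chain (5 without 595sp), 4 of 7 of the oligosaccharyltransferase, and 6 of 8 for trimming and processing (3 without 595sp). Of 5 genes that supply activated sugars in the cytosol 1 rose and none fell (0 also at an unadjusted p under 0.05). Mogs, glucosidase I, which starts trimming, read 11.10, 8.12 and 8.37 in 595sp and 9.88, 7.58 and 8.02 in 638bm. Treated and untreated arrays did not overlap, and the fall was 2.47 ± 0.20 (adjusted p = 4.20e-06). The catalytic transferase subunit Stt3a fell by 1.56 ± 0.19 and the Golgi mannosidase Man2a1 by 1.55 ± 0.21. Ganab, the next glucosidase, fell by 1.57 ± 0.19, with 5 probes between -1.57 and -0.15. Among 34 ER chaperones and degradation factors 10 fell and 2 rose, median -0.46, with 17 lower without 638bm, and Pdia5, a disulfide isomerase, fell by 1.43 ± 0.16.

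Of 34 adhesion and surface genes 21 fell and none rose (0 also at an unadjusted p under 0.05; 1 rose without 638bm), with a median of -0.88 (-0.93 in 595sp and -0.83 in 638bm). Cd93 read 9.43, 6.62 and 6.57 in 595sp and 9.47, 6.13 and 6.15 in 638bm. Cd47, the signal that restrains phagocytes, read 11.51, 9.49 and 9.45 in 595sp and 11.84, 9.49 and 9.54 in 638bm, and fell by 2.18 ± 0.20. In both genes the lines started and ended at similar levels. Icam2, a ligand of leukocyte integrins, fell by 1.59 ± 0.18. Itgb7, the beta subunit of a homing integrin, fell by 1.77 ± 0.25 although the untreated lines differed widely in it, at 11.89 in 595sp and 6.23 in 638bm. At 24 h it was above background on 2 of 4 arrays, not on those of 638bm (4.61 and 4.87), so its fall there is not fully measured. Of 26 cytokine and chemokine receptors 11 fell and none rose (0 also at an unadjusted p under 0.05; 1 rose without 595sp), median -0.53. Cxcr5, the receptor that draws B cells to follicles, fell by 2.11 ± 0.28 and was above background on 2 of 4 arrays at 24 h, not on those of 638bm (5.23 and 5.34). Il7r fell by 1.45 ± 0.22 and the insulin receptor Insr by 1.31 ± 0.18.

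The B cell receptor list, from the receptor to its signalling enzymes, held 11 falls and 3 rises among 31 genes. Its median was -0.22, 0.12 in 595sp and -0.62 in 638bm, and 6 fell without 638bm. The falls included surface chains and inhibitory receptors, Cd22 (-2.21 ± 0.33), Cd79b, a signalling chain of the receptor (-1.33 ± 0.27), and Fcgr2b, the inhibitory Fc receptor (-1.08 ± 0.18). The adaptor Dapp1 rose by 1.26 ± 0.21. The mature B cell markers given above include Cd22 and Cd79b, and the part of cell composition in these values was not tested. Of 29 transcription factors of the B lineage 3 rose and 5 fell, with 3 falls without 595sp and 5 rises without 638bm, among them the repressor Bcl6 (1.02 ± 0.20) and the haem-regulated repressor Bach1 (0.87 ± 0.16) upward and Bcl11a (-1.81 ± 0.27) and Pou2f2 (-1.27 ± 0.22), which activates immunoglobulin promoters, downward. The shares of the B lineage factors, 10.3% higher and 17.2% lower, stand beside 13.3% and 10.1% of all genes. Genes of antigen presentation were mostly lower or not called for both MHC classes. Of 19 class I genes 7 fell and none rose (1 rose at an unadjusted p under 0.05), median -0.49, with the peptide pump subunits Tap1 at -1.31 ± 0.21 and Tap2 at -1.01 ± 0.20. Of 19 class II genes 11 fell and 1 rose, median -1.21. H2-DMa, which loads peptide onto class II, fell by 1.90 ± 0.18, and Ifi30, a lysosomal thiol reductase, by 1.57 ± 0.24.

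Genes of lipid synthesis and glucose use were lower or not called. Of 21 sterol genes 11 fell and none rose (0 also at an unadjusted p under 0.05), median -0.74. The sterol regulatory element, searched as TCACNCCAC on both strands, occurs in 0 of the 23 promoters of this list and in 1.136% of those of genes tested. Of 25 genes of fatty acid synthesis 11 fell and none rose (1 rose at an unadjusted p under 0.05), median -0.27. Scd1 read 9.92, 6.92 and 7.18 in 595sp and 11.65, 8.52 and 8.64 in 638bm, so it fell about equally from different levels. Elovl6, a fatty acid elongase, fell by 2.05 ± 0.29. In the opposite process, fatty acid oxidation, 3 of 26 rose and 1 fell, with Eci2, an enoyl-CoA isomerase, higher by 0.96 ± 0.16. That share is near the background of all genes, and without 638bm 6 rose. Of 21 glycolysis genes 11 fell and none rose (0 also at an unadjusted p under 0.05), median -0.62. The glucose transporter Slc2a1 read 12.17, 10.31 and 10.34 in 595sp and 11.92, 10.15 and 10.10 in 638bm (-1.82 ± 0.41). Pdk1, which restrains pyruvate oxidation, fell by 1.39 ± 0.21, Ldha, lactate dehydrogenase, by 1.29 ± 0.18, and Pfkl, a phosphofructokinase, by 1.30 ± 0.26. The other probe of Pfkl gave -0.38. Of 23 targets of the hypoxia factor HIF 6 fell and 1 rose. Ankrd37 fell by 2.98 ± 0.44 and Fam162a by 1.89 ± 0.26. Of 69 oxidative phosphorylation genes 11 fell and 1 rose, with Uqcr11, a complex III subunit, at -1.22 ± 0.17.

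Of 23 iron genes 3 rose and 3 fell, shares near the background of all genes, and 5 rose and 5 fell without 638bm. Tfrc, which imports iron-loaded transferrin, read 11.99, 9.21 and 9.0 in 595sp and 12.79, 10.04 and 9.80 in 638bm, the same fall in both lines. The ferrous iron transporter Slc11a2 fell by 1.29 ± 0.20, with its 3 probes between -1.29 and -0.31. Ftl1, the ferritin light chain that stores iron, rose by 1.46 ± 0.26 and Alas1, the first enzyme of haem synthesis, by 1.09 ± 0.17. Among zinc genes the importer Slc39a4 rose by 1.37 ± 0.26 and the importer Slc39a6 fell by 1.31 ± 0.17, within a list of 19 with 1 rise and 3 falls. Those shares, 5.3% and 15.8%, stand beside 13.3% and 10.1% of all genes. Of 29 NRF2 and glutathione genes 8 rose and 2 fell, median 0.40, but 4 rose without 595sp and 13 without 638bm. Gclm, the modifier subunit of the enzyme that limits glutathione synthesis, read 7.58, 9.99 and 10.33 in 595sp and 7.62, 8.71 and 8.78 in 638bm. The lines started level and 595sp rose further, with a mean change of 1.85 ± 0.29, and Nfe2l2, which encodes NRF2, rose by 0.97 ± 0.20. The antioxidant response element was searched as TGACNNNGC on both strands. It occurs in 29.4% of the promoters of this list, in 13.96% of those of genes tested and in 12.39% of all. In the promoter of Gclm (chr3:122245307-122245606, plus strand) the element lies on the reverse strand at -134, in capitals. This promoter is shown because the rise of the gene was called without either line.
Gclm: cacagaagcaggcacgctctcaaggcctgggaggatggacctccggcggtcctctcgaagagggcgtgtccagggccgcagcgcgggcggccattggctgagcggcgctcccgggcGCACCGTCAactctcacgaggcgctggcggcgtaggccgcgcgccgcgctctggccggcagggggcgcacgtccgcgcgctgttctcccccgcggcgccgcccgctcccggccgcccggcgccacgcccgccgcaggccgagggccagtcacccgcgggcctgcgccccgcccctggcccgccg

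Cell death genes included rises of over 2-fold. Of 15 genes of death receptors and necroptosis 5 rose and 1 fell. Mlkl, the protein that carries out necroptosis, read 6.59, 9.56 and 9.39 in 595sp and 5.02, 7.23 and 7.01 in 638bm, where the untreated value was not above background, and its change was 2.49 ± 0.31 (adjusted p = 8.15e-05). Ripk3, the kinase that activates it, rose by 1.03 ± 0.30, a call lost without 595sp (0.57), and 2 genes of the list rose without 595sp. Of 32 BCL2 family and caspase genes 7 rose and 3 fell, with 4 higher without 595sp. Casp1 read 10.70, 13.16 and 12.85 in 595sp and 10.26, 11.94 and 12.06 in 638bm, above the untreated arrays throughout, and Bbc3, a BH3-only activator of apoptosis, rose by 0.90 ± 0.23. Of 27 NF-kB genes 5 rose (18.5%) and 2 fell (7.4%), near the 13.3% and 10.1% of all genes. Rela, a subunit of the factor, was higher by 0.93 ± 0.20. Of 35 interferon-stimulated genes 2 rose and 5 fell, with 5 rises and 2 falls without 595sp and 2 rises and 8 falls without 638bm. The shares of the interferon list, 5.7% higher and 14.3% lower, stand beside 13.3% and 10.1% of all genes. Trim25, an ubiquitin ligase of RNA sensing, fell by 1.42 ± 0.23.

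Of the growth machinery, cytosolic ribosomal proteins, DNA replication and replication histones held few calls. Of 57 cytosolic ribosomal protein genes none rose (2 rose at an unadjusted p under 0.05) and 2 fell, and the median was 0.05 with a range from -0.87 to 0.69. Of 47 DNA replication genes 1 rose and 3 fell, with a median of 0.01 whose sign changed with the scaling, and none was called without 638bm. Of 45 mitosis genes 3 rose and 6 fell, with 1 rise and 4 falls without 595sp and 5 rises and 2 falls without 638bm. Their median was 0.22 in 595sp and -0.34 in 638bm. Of 52 replication histone genes none rose (3 rose at an unadjusted p under 0.05) and 1 fell, with a median of 0.19 in 595sp and -0.18 in 638bm. Ndc80, a kinetochore protein, rose by 0.97 ± 0.18. The cyclin Ccnd1 fell by 1.47 ± 0.26, with its 3 probes between -1.47 and -0.44. Of 60 genes that build ribosomes 13 rose and 4 fell, median 0.24, and without 638bm 6 rose and 6 fell. Gnl2, a GTPase of the large subunit, rose by 0.99 ± 0.15 and Ltv1, which matures the small one, by 0.93 ± 0.19. Of 72 mitochondrial ribosomal protein genes 16 rose and 2 fell, median 0.22, with 6 higher without 595sp. Mrps6 rose by 1.06 ± 0.19. Of 51 splicing factors 11 rose and 1 fell, median 0.22, with 7 higher without 595sp. The risers included Sf3b4 (1.11 ± 0.19) and the kinase Clk1 (0.99 ± 0.17). Shares higher were 21.7% for ribosome building, 22.2% for mitochondrial ribosomal proteins and 21.6% for splicing factors, against 13.3% of all genes. Shares lower were 6.7%, 2.8% and 2.0%, against 10.1%.

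The earlier times share the untreated arrays with 24 h and are given side by side. Proteasome genes had a median of 0.21, 0.68, 0.74 and 0.93 at 2, 8, 16 and 24 h. The integrated stress response list stood at -0.05, 0.68, 0.90 and 0.88. Ubiquitin-pathway gene Zfand2a was at 1.13 by 2 h and at 2.26, 2.07 and 2.37 later, while Ypel5 was at -0.07, 0.15, 1.31 and 1.76. Tfrc stood at 0.09, -0.49, -2.06 and -2.88. The ER list had the opposite sign earlier, with a median of 0.40 at 8 h and -0.46 at 24 h, and Calr, an ER lectin chaperone, was at 0.79 at 8 h and -0.99 ± 0.28 at 24 h. Glycolysis was uneven in time, with medians of -0.34, -0.78, 0.02 and -0.62, and Pfkl was at -0.96, -1.32, -0.10 and -1.30. Each earlier time has 1 array per line.

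**Figure D5:**
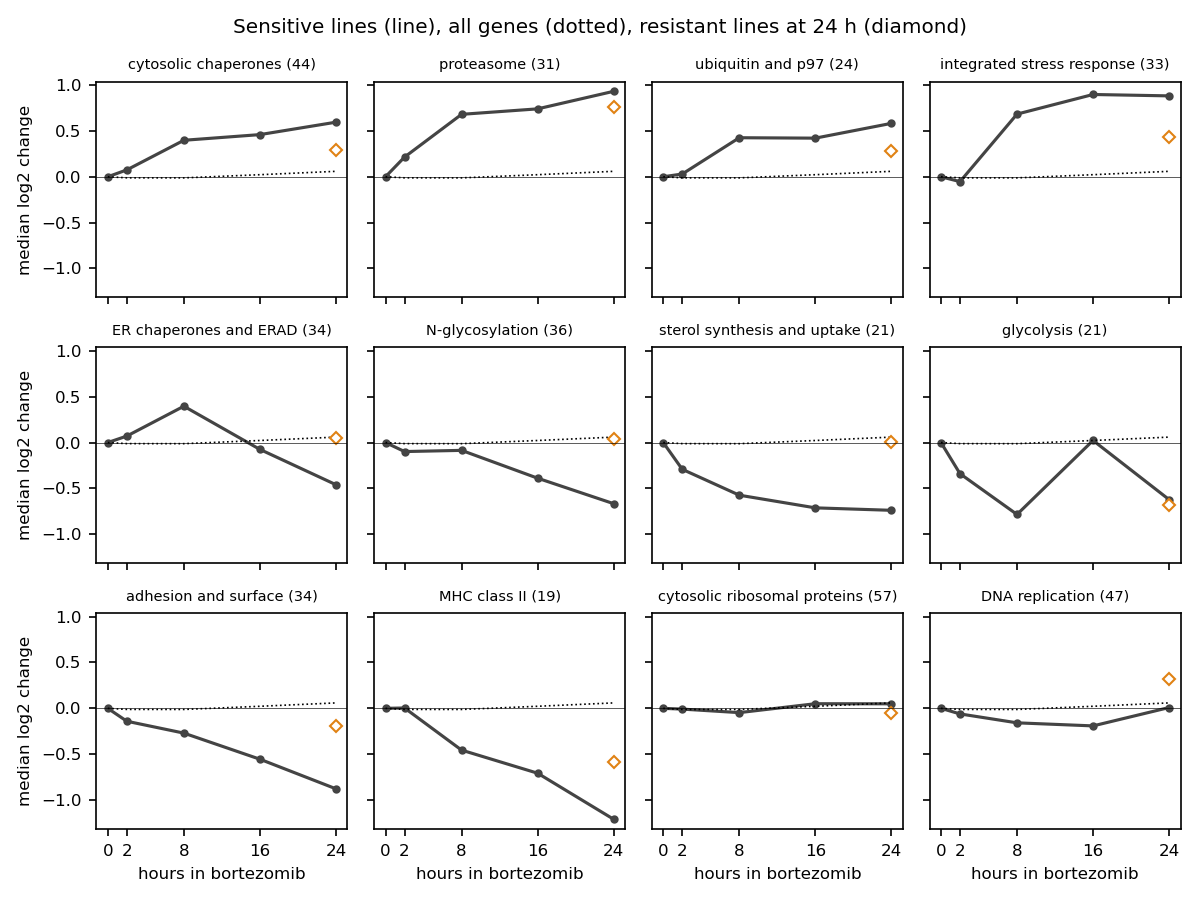
Median change against 0 h (log2) of 12 gene lists in the sensitive lines at 2, 8, 16 and 24 h, with the resistant lines at 24 h as a diamond. The proteasome list climbs to 0.93, and the ER list crosses from 0.40 at 8 h to -0.46 at 24 h.

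The 24 h change was set against that of the resistant lines in the same model. Of 10969 genes 138 (1.26%) differed at an adjusted p under 0.05. In 105 the change was more positive in the resistant lines and in 33 more negative. This count depends on single lines: it was 252 without 595sp, 839 without 638bm, 4 without 595sp VR and 0 without 638bm VR, where 790 genes had an unadjusted p under 0.05. It was also 0 without the late arrays of 638bm VR (16 h and 24 h), whose time labels disagree (1049 at an unadjusted p under 0.05). With these limits, Tfrc changed by -2.88 in sensitive and by -0.00 in resistant lines (difference 2.88 ± 0.45), Cyp51, a sterol demethylase, by -2.88 and 0.06 (2.94 ± 0.56), and Mogs by -2.47 and -0.24 (2.22 ± 0.28). Adhesion and surface genes gave 5 of 34 such differences, fatty acid synthesis 5 of 25 and N-glycosylation 4 of 36, all more positive in the resistant lines. Replication histones gave 5 of 52, all more negative there. Trafd1 changed by 2.16 and 2.13 (difference -0.03 ± 0.24) and Mlkl by 2.49 and 2.56 (0.07 ± 0.44), and neither difference passed the threshold.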

How the data were processed

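RNA was measured on 1-colour bead arrays for mouse after biotin labelling with an Illumina amplification kit, per the labels' protocols. Per the file headers, the deposited values are average signal intensity for each of 45281 probes on 24 arrays, linear and not normalized. A second deposited table of processed intensity values, with each array at a median of 64.37 or 64.38, served as an alternative. Which software made it was not given in the sources used here. Neither table gives detection p-values or control probes, which the background step first planned would have used, so another was chosen.

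Background was corrected with normexp (limma 3.58.1 in R 4.3.3; offset 16) and arrays were quantile normalized and put on the log2 scale; the deposited values themselves are not logged. The offset shrinks the changes of dim genes. A probe was above background where its log2 signal lay more than 2.326 SDs over the mode, with the SD from values mirrored at the mode, in place of a detection p of 0.01, and was kept if so on at least 2 arrays. Of 45281 probes 34885 had 1 gene symbol in the platform annotation. The brightest probe stood for a gene, and the other probes are not given for every gene. Those can differ: the 3 probes of Pdia5 ran from -1.43 to -0.34, and the 3 of Sf3b4 from 0.27 to 1.11. Arrays of 24 h were averaged per line, which gave 20 values, fitted in limma with arm by time and a term for the line. Calls are Benjamini-Hochberg adjusted p-values under 0.05 over 10969 genes. The number of arrays limits the precision.

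Lines are the pairing, since each was sampled at every time: deviations of a line from its group mean correlated between times with r of 0.772 to 0.908 among sensitive and 0.824 to 0.926 among resistant lines. Each run of 6 neighbouring table columns was taken as a possible batch, though no label calls it one. Slide numbers in scanner files were not used here. In 638bm VR, 4 of 6 samples have a timepoint label that disagrees with the title, and titles were used.

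Genes and gene lists were chosen with earlier results of these data known, so neither is independent support. Named genes were the 12 higher and 12 lower genes ranked by the change of whichever line moved less, up to 4 called members per list and direction by the same measure, and Psmb5, Myc and Bcl2l1; others are said to be picked after their values were seen. Subgroups of lists were chosen after the values were seen. The fit was tested on simulated data. Alternatives covered scaling, background, table, filters, probes, pairing, lines left out and the 24 h array used.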

Additional observations from a re-analysis of the deposited data

Results flagged for a closer look

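For 24 of the 125 genes named in the text, the 24 h change differed between the resistant and the sensitive lines. The test was the interaction term of the limma fit (adjusted p under 0.05), which 1.26% of all genes tested passed. Most named genes were picked for large changes in the sensitive lines, and the same values enter the difference. A higher share, with smaller changes in the resistant lines, is therefore favoured by the choice and is no independent support. Values are resistant minus sensitive on the log2 scale. In the genes that fell in the sensitive lines the change was less negative or positive in the resistant ones. The difference was 2.94 for Cyp51, 2.88 for Tfrc, 2.19 for Scd2 and 1.82 for Scd1. At the cell surface it was 1.92 for Cd93, 1.46 for Cd47 and 1.11 for Icam2. In the ER and Golgi it was 2.22 for Mogs, 1.49 for Ganab, 1.55 for Kdelr2, 1.29 for Pdia5 and 1.23 for Ssr1. In the lysosome and antigen processing it was 1.98 for Ifi30, 1.61 for Gusb, 1.497 for Napsa, 1.38 for Man2b1 and 1.31 for Ctsc. Among transporters it was 1.31 for Abcc4, 1.22 for Abca2 and 1.16 for Slc39a6. Of the genes that rose in the sensitive lines, Hspb1 differed by -2.91, Ddit3 by -1.67, Ypel5 by -1.61 and Gabarapl1 by -1.49. These differences rest on the 2 resistant lines together, since over all genes 4 differed without 595sp VR and 0 without 638bm VR or without its 16 h and 24 h arrays. No sample of the named genes stood out within the 4 arrays at 24 h by Dixon's criterion, which chance passes in about 1 in 20 groups of independent values. The 4 arrays are 2 close arrays from each of 2 lines, so the criterion can hardly single out 1 array. The lack of flags is therefore no check of the arrays.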

How the results depend on the processing

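Against 1460 genes higher, 1106 lower and 813 changed at least 2-fold, these counts stayed within 1.5 times under the alternatives of scaling, background, table, filter, probe and 24 h array. The line was the replicate block, since both times come from the same line: with no replicate block, 63 genes were higher, 87 lower and 125 changed 2-fold, 0 differed between the arms (378 at an unadjusted p under 0.05 by limma), and 84 of 125 named genes lost their call. With the sensitive lines alone 825 were higher and 698 lower. With a smallest log2 change of 0.5 in the test 133 were higher and 231 lower. With 1 line left out, 992 to 1357 were higher, 830 to 1168 lower and 947 to 1270 changed 2-fold, with the lone line assumed to vary like the other groups.

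The 138 differences between the arms moved most. They were 229 with median scaling, 231 without background correction, 228 with offset 50, 231 in the authors' processed values and 90 when probes of a gene were averaged. With 1 of the 4 lines left out they ran from 0 to 839, and they were 0 (1049 at an unadjusted p under 0.05) without the arrays of 638bm VR whose labels conflict. A fit of 24 arrays with blocks of table columns as a term, chosen after seeing the data, gave 495. The cause was not tested. Among the 125 named genes none changed direction in a called value under any alternative run. Most were picked for large changes of the same sign in both lines, so this is favoured by the choice. With a smallest log2 change of 0.5 in the test 49 of the 125 lost their call, and with the sensitive lines alone 6. Within 1 block of table columns a change can be given for 595sp only, with no test, and 638bm has none. Probe signal near background limits the fold changes of dim genes.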

Other observations

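Several gene groups are not described above. Of 44 cytosolic chaperones and their cofactors 23 rose and none fell (0 also at an unadjusted p under 0.05), with a median of 0.60 (log2). Of 17 plasma cell genes 2 rose and 5 fell, with a median of -0.40 and 8 falls without 638bm. Slamf7, the target of elotuzumab, fell by 1.51 ± 0.22 (SE of the joint fit, n = 2 lines) and Txndc5, an ER thioredoxin, by 0.95 ± 0.16. Of 19 ABC transporters 3 rose and 7 fell, with 4 falls without 595sp. Abcc4, an exporter of cyclic nucleotides, fell by 1.12 ± 0.21, Abca2 by 1.10 ± 0.20 and Abca3, a phospholipid transporter, by 1.21 ± 0.22.

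Of 24 p53 targets 5 rose and 2 fell, with 3 rises without either line. Of 24 immediate early genes 1 rose and 3 fell: Ier3 rose by 1.41 ± 0.30, and Nr4a2, an orphan nuclear receptor, fell by 1.45 ± 0.22. Of 21 genes of the MYC network 1 rose and 4 fell. Myc itself read 9.66, 8.94 and 8.95 in 595sp and 9.50, 10.41 and 10.49 in 638bm on the untreated and both 24 h arrays. It lay on opposite sides of the untreated level in the lines (0.12 ± 0.33), and whether the probe reads the transgene was not tested. Bcl2l1, the gene of Bcl-XL, stood at 14.89, 14.68 and 14.36 in 595sp and at 14.91, 14.54 and 14.63 in 638bm. The difference of -0.35 ± 0.24 did not pass the threshold, and whether this probe reads the transgene was not tested either. Of 37 cytoskeleton genes 4 rose (10.8%) and 1 fell (2.7%), against 13.3% and 10.1% of all genes. The medians of the list were 0.47 in 595sp and -0.13 in 638bm. Without 595sp none rose and 5 fell, and without 638bm 8 rose and none fell. Of 7 snoRNA host and long noncoding genes 2 rose and 1 fell, and Snhg12 read 10.54, 10.86 and 10.86 in 595sp and 10.09, 13.36 and 13.51 in 638bm. Its change of 1.83 ± 0.47 came mostly from 638bm, without which 0.32 was not called. Of 22 cyclins and CDK inhibitors 1 rose and 4 fell.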
